A study of Mus musculus with 6 samples.

Results

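Imprinted growth genes are the 10 genes H19, Igf2, Dlk1, Meg3, Cdkn1c, Grb10, Peg3, Mest, Plagl1 and Igf2r, taken by their gene symbols from the 56884 genes listed in each of 6 single-cell libraries. All 10 were present once in every library, and their unique molecular identifiers (UMIs, 1 for each captured transcript) were summed per library and cell type. The libraries were made with the BD Rhapsody whole-transcriptome assay, each from cells pooled from 2 mice of 1 genotype, described as littermates for the lungs. For Bdnf and for Hgf, a lung library of lox/lox control mice was paired with one of iPCKO mice, both at P21. For Nodal, the pair of lox/lox control and iPCKO libraries was made from cerebral cortex at P12. The iPCKO mice carry the floxed alleles of the named gene together with Pdgfrb(BAC)-CreERT2, a transgene that is active in pericytes and also in vascular smooth muscle cells, whereas the controls carry the floxed alleles without CreERT2. Controls and mutants alike had received 50 µg tamoxifen on each day from P1 to P3. Lung cells had been depleted of CD45+ and Ter119+ cells, and myelin and meninges had been removed from the cortex.

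At an imprinted locus, methylation set in the germ line marks 1 parental copy, and a gene is read mainly from the maternal or from the paternal copy. Many imprinted genes act on growth before and shortly after birth, with paternally expressed genes such as Igf2, Dlk1, Peg3, Mest and Plagl1 and maternally expressed genes such as H19, Meg3, Cdkn1c, Grb10 and Igf2r, and a set of them is known to be expressed together in growing organs and to decline as growth slows. Igf2 and H19 share an imprinting control region and enhancers, and Dlk1 and Meg3 share another. Neurons are a known exception for Grb10, which they read from the paternal copy.

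Positions are from a GENCODE annotation of GRCm39 and not from the data files. H19, a long non-coding RNA, lies at chr7:142129262-142133957 on the minus strand. Igf2, the growth factor insulin-like growth factor 2, lies at chr7:142204503-142220694 on the minus strand. Dlk1, a transmembrane protein related to Notch ligands, lies at chr12:109418749-109429262 on the plus strand, and Meg3, a long non-coding RNA, follows at chr12:109506877-109538165 on the plus strand. Cdkn1c, which encodes the cyclin-dependent kinase inhibitor p57, lies at chr7:143012069-143014806 on the minus strand. Grb10, an adaptor that dampens insulin and IGF receptor signalling, lies at chr11:11880498-11988683 on the minus strand, and Igf2r, the receptor that clears IGF2 from the cell surface, at chr17:12901293-12988614 on the minus strand. Peg3, a zinc finger protein, lies at chr7:6706882-6733468 on the minus strand, Mest, a member of the hydrolase family, at chr6:30723546-30752058 on the plus strand, and Plagl1, a zinc finger transcription factor, at chr10:12936248-13007438 on the plus strand.

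Of the 10 genes, 8 had 15 promoter sequences in the RefSeq table used here, which takes 250 bases before and 50 after each start site and is credited to GRCm38.p6. Each of the 15 matched GRCm39 exactly once, and coordinates are given on that build. H19 and Cdkn1c had no entry. The promoters of Dlk1, Meg3, Peg3 and Mest, whose levels in AT2-like, gCap-like or aCap-like cells differed between control and mutant as described below, are shown 5′ to 3′ on the strand of the gene, namely Dlk1 at chr12:109418499-109418798, Meg3 at chr12:109506629-109506928, Peg3 at chr7:6733369-6733668 and Mest at chr6:30737799-30738098. Capitals mark matches to any of 5 motifs searched on both strands, which were the TATA box TATAAA, the GC box GGGCGG, the cAMP response element TGACGTCA, the YY1 motif AANATGGC and the palindrome GGGGCCCC bound by PLAGL1.
Dlk1: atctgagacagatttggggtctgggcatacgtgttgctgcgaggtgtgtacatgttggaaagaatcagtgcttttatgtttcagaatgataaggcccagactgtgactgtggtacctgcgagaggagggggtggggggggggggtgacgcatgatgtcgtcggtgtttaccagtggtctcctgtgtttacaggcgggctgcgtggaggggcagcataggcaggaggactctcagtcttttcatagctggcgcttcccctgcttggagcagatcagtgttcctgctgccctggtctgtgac
Meg3: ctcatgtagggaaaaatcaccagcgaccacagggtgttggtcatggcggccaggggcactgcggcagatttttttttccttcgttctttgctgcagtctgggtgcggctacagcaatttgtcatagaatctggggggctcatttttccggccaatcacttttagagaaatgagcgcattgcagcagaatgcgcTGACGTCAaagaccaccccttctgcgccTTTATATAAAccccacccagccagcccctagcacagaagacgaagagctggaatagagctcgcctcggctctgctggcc
Peg3: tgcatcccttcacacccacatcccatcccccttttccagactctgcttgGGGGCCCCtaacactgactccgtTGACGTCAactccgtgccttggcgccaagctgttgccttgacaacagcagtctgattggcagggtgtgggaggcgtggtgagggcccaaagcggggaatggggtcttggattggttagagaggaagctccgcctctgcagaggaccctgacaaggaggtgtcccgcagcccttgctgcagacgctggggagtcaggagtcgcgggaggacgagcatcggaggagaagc
Mest: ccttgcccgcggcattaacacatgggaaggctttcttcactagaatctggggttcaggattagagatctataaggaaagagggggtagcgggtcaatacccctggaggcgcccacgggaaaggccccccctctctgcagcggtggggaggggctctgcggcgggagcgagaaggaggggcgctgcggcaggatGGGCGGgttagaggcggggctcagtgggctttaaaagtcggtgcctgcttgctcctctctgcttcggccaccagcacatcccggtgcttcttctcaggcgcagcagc
The promoter of Dlk1 held none of the 5 motifs. Meg3 had 2 overlapping matches to TATAAA, 1 on each strand, and a cAMP response element at position -57 from its start site. Peg3 had a cAMP response element at -178 and a GGGGCCCC at -201, and Mest had a GC box at -57. Of all 32851 promoters of the same length in the table, 13.6% held TATAAA, 35.7% GGGCGG, 1.79% TGACGTCA, 6.05% AANATGGC and 1.08% GGGGCCCC. Where a gene had several entries the one printed was chosen by hand. The second promoter of Meg3, at chr12:109511031-109511330, held 1 CpG dinucleotide and none of the motifs. A further one of Mest, at chr6:30733255-30733554, held 8 and a GC box, and another starts 3 bases after the one shown. The 4 promoters shown held 9, 13, 13 and 17 CpG dinucleotides in this order, against a median of 7 over all promoters. These matches are descriptions of letters in the window, and binding was not measured.

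Barcodes with at least 1500 UMIs (700 in the Hgf libraries) were taken as cells, which gave 17154 Bdnf control, 24311 Bdnf mutant, 14622 Hgf control, 16155 Hgf mutant, 3237 Nodal control and 5008 Nodal mutant cells. The libraries held 33889545 to 186701379 UMIs in all, and the median per cell ranged from 2841 UMIs in the Hgf mutant to 7791.5 in the Nodal mutant. Cells were named from marker genes, and every name below stands for a like cell (AT2-like, pericyte-like), where AT1 and AT2 are alveolar epithelial types and gCap and aCap the general and aerocyte capillary endothelium. Between 76.5% and 91.3% of cells received a name, 4.08% to 21.2% held markers of 2 classes and stayed unnamed, and 5.03% to 12.999% changed their label when the limits were moved by 0.1. Cells with markers of 2 classes made up 15.4% of the Bdnf control and 21.2% of the mutant. They made up 11.5% and 17.1% in the Hgf pair and 4.08% and 4.37% in the Nodal pair. The part of such mixing in the levels of named cells was not tested. The markers that named the cells were higher in each type of at least 20 cells than in the other cells, which the naming itself favours, except 1 of 5 arterial markers in the Hgf control and 1 of 7 matrix fibroblast markers in the Hgf mutant. Any pair of libraries shared 21 to 457 cell barcodes, with 457 against 456.9 from random draws for the Bdnf lungs. The Bdnf mutant and the Hgf control shared 432 against 389.5, and the Nodal mutant shared 108 against 80.2 with the Hgf control and 116 against 88.6 with the Hgf mutant. The targeted genes went with the labels in pericyte-like cells, where the control and the mutant held 10 and 2 UMIs of Bdnf, 24 and 10 of Hgf, and 184 and 0 of Nodal. This is 24.8 and 4.94, 145 and 29.3, and 117 and 0 CPM, and the 0 allows up to 1.39 CPM.

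There was 1 library per genotype, so no difference below has a replicate and none was tested. Levels are UMIs per 1000000 UMIs of the same cells (CPM) with exact Poisson 95% intervals, and differences are log2 ratios of mutant over control CPM with conditional exact 95% intervals, in parentheses. These intervals cover counting error alone, and treat UMIs as independent, which those of 1 cell are not. The members were chosen on these sums, so that the values are descriptions. To show how far libraries of unmutated lungs lay apart, the ratio of the Hgf control over the Bdnf control stands beside the lung results. Both lung pairs were compared with their own control, and Cre was absent from both controls, so the effect of the transgene cannot be told apart from that of the deleted gene.

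In the control libraries the imprinted growth genes differed in the cell types where they were highest, with some types shared. Cdkn1c was highest in pericyte-like cells of the lung, at 1168 CPM in the Bdnf control and 1016 CPM in the Hgf control, followed by ciliated cells at 988 and 771 CPM and arterial endothelial cells at 497 and 526 CPM. In AT2-like cells it had 11.6 and 12.1 CPM. Peg3 was highest in adventitial fibroblasts, with 638 CPM in the Bdnf control and 474 CPM in the Hgf control. Plagl1 was highest in AT1-like cells, with 366 and 292 CPM, and Mest in aCap-like cells, with 185 and 263 CPM. Grb10 was highest in myofibroblasts, with 333 CPM in the Bdnf control and 365 CPM in the Hgf control, and next in matrix fibroblasts with 318 and 285 CPM. The intervals of these neighbouring levels overlapped in both controls. Igf2r was found in every named class of the lung, and in the Bdnf control its lowest level was 18.7 CPM in lymphatic cells and its highest 161 CPM in pericyte-like cells.

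In the Bdnf control lung, adventitial fibroblasts made up 3.77% of cells and held 76.4% of the Dlk1 UMIs and 24.4% of the Meg3 UMIs. AT2-like cells held 40.8% of the Meg3 UMIs with 32.5% of cells. H19 had its highest level in lymphatic endothelial cells of the Bdnf control, at 301 CPM (267 to 338), and Igf2 in mesothelial cells, at 297 CPM (237 to 369, 29 cells), while in the Hgf control Igf2 was highest in lymphatic cells, at 329 CPM. In the cortex control, Igf2 had 13579 CPM in fibroblasts, 2394 CPM in pericyte-like cells and 90.4 CPM in vascular smooth muscle cells (vSMCs). Meg3 was highest in neurons, at 2943 CPM, with 459 CPM in pericyte-like cells. Over the 38 cell types of the 3 control libraries, the levels of H19 were most like those of Lrrn4cl (r = 0.69), Nid2 (0.69) and Pgf (0.64), those of Igf2 like Gm49394 (0.997), Twist1 (0.79) and Flnc (0.76), those of Dlk1 like Fmod (0.74), Gm10134 (0.72) and Foxs1 (0.70), and those of Meg3 like Rian (0.94), Mirg (0.91) and Cys1 (0.79). These are Pearson correlations of log2(CPM + 1) among 14984 genes, given as descriptions, since cell types of 1 library share its depth and its free RNA. Rian and Mirg are transcribed downstream of Meg3 from the same imprinted domain, and Gm49394 overlaps Igf2.

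**Figure D1:**
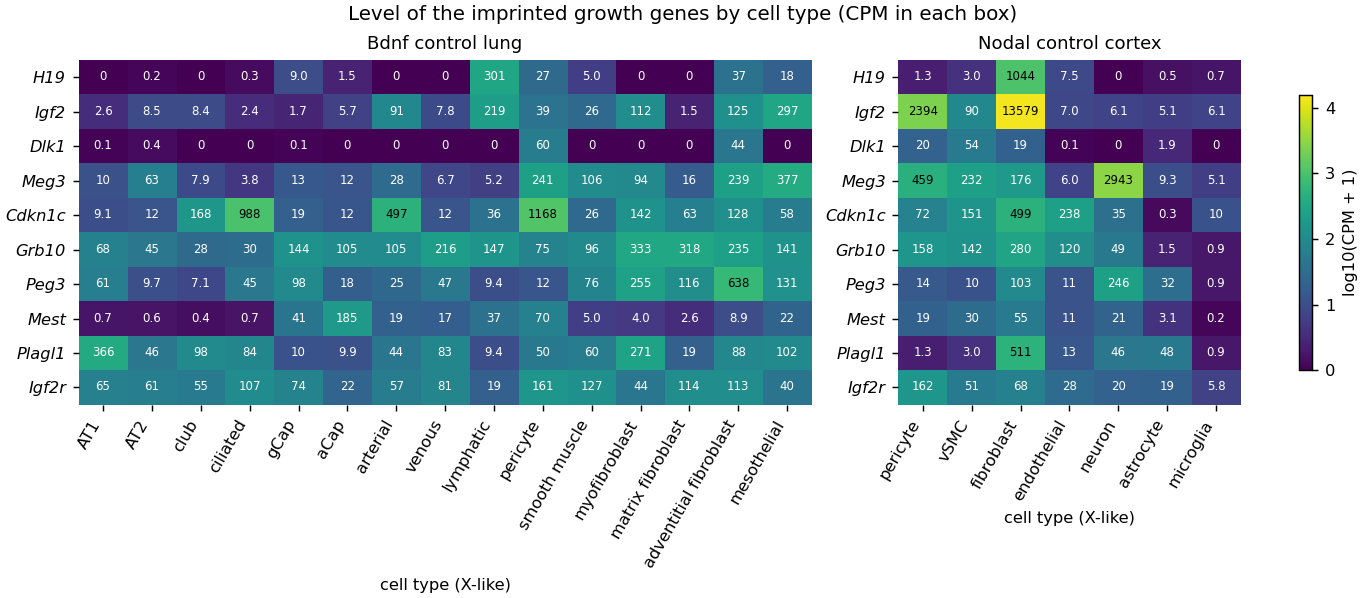
Level of each gene (rows) in named cell types (columns) of the Bdnf control lung and the Nodal control cortex, with CPM printed in each box and log10(CPM + 1) as colour. Cdkn1c stands at 1168 CPM in lung pericyte-like cells, Plagl1 at 366 CPM in AT1-like cells, Peg3 at 638 CPM in adventitial fibroblasts, and Igf2 at 13579 CPM in cortex fibroblasts.

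Igf2 and the overlapping gene model Gm49394 shared reads. Of the matrix entries of Igf2, 70.5% were not whole numbers, because multi-mapping reads had been divided between genes, against at most 0.580% in the other members. Igf2 held 50.8% to 55.8% of the summed UMIs of both genes in the lung libraries and 66.9% to 70.2% in the cortex libraries. The level of Igf2 is therefore that of a divided count, and the sum of both genes over all cells was 42.4, 113, 27.5 and 22.8 CPM in the Bdnf control, Bdnf mutant, Hgf control and Hgf mutant lung, and 917 and 530 CPM in the Nodal control and mutant cortex. Airn, an antisense RNA that overlaps Igf2r, was counted as a gene of its own, and whether the counting used strand is not given in the sources used here.

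Over all cells of the Bdnf mutant lung, 4 of the 10 genes (H19, Igf2, Dlk1 and Meg3) were more than 2-fold higher than in the control and none was 2-fold lower. A gene was counted with 20 UMIs or more in the pair, and of 27263 such genes 2.41% were 2-fold higher and 1.74% 2-fold lower. H19 stood at 8.59 CPM in control cells and 48.7 CPM in mutant cells, a log2 ratio of 2.503 (2.42 to 2.59). Igf2 had 21.9 and 63.2 CPM, a log2 ratio of 1.53 (1.47 to 1.59). Dlk1 had 3.15 and 12.1 CPM, a log2 ratio of 1.94 (1.79 to 2.10), and Meg3 53.6 and 110.5 CPM, a log2 ratio of 1.04 (1.004 to 1.08). The other 6 lay between a log2 ratio of -0.15 for Igf2r and 0.64 for Mest.

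In the Hgf mutant lung, Dlk1 was the only member more than 2-fold higher over all cells and Mest the only one more than 2-fold lower, where 7.98% of 22915 genes were higher and 6.7% lower. Dlk1 had 1.18 and 24.3 CPM in control and mutant, a log2 ratio of 4.37 (4.03 to 4.72), and Mest had 23.5 and 7.74 CPM, a log2 ratio of -1.60 (-1.75 to -1.45). Without the 5 cells with most Dlk1 in each library, which held 68% of it in the control and 6.21% in the mutant, the log2 ratio of Dlk1 was 5.92. Meg3 had 64.2 and 120.4 CPM, a log2 ratio of 0.91 (0.85 to 0.96). H19 and Igf2, which were higher in the Bdnf mutant, had log2 ratios of 0.15 (-0.02 to 0.32) and -0.39 (-0.54 to -0.25). Without the 5 cells with most H19 in each library, which held 53.2% of it in the control and 16.2% in the mutant, the log2 ratio of H19 was 0.99. Between the control lungs, 1 member was past 2-fold, Dlk1 with a log2 ratio of -1.42 (-1.79 to -1.06), where 10.8% of genes were 2-fold lower and 5.8% higher. In the Nodal cortex none of the 10 was past 2-fold over all cells, where 3% of 22751 genes were higher and 2.31% lower. Past 2-fold under an alternative were H19, with a log2 ratio of 1.89 without the 5 cells with most H19 in each library, and Meg3, with 1.55 under limits on doublets, mitochondrial reads and UMIs. The 5 cells held 80.3% of H19 in the Nodal control and 43.4% in the mutant. Leaving out a fixed number of cells takes a larger share from the library whose UMIs lie in fewer cells. This moves the ratio by itself, so ratios without the 5 cells are not better estimates. At a limit of 1.5-fold, 5 members were higher and 0 lower in the Bdnf pair (8.37% and 5.84% of genes), 3 higher and 2 lower in the Hgf pair (17.8% and 14.5%), and 1 higher and 3 lower in the Nodal pair (7.63% and 8.51%).

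AT2 cells, which make surfactant and renew the alveolar epithelium, had the largest log2 ratio of Dlk1 in both lung pairs among named types with 20 UMIs or more in the pair. In AT2-like cells Dlk1 had 17 UMIs in 15 of 5567 Bdnf control cells, 233 UMIs in 79 of 6343 Bdnf mutant cells, 21 UMIs in 10 of 5361 Hgf control cells and 1141 UMIs in 336 of 3810 Hgf mutant cells. Both mutants lay above both controls, and the Hgf mutant above the Bdnf mutant. The levels were 0.350 (0.204 to 0.561), 6.01 (5.26 to 6.83), 0.813 (0.503 to 1.24) and 81.3 (76.6 to 86.1) CPM in this order. The log2 ratio was 4.10 (3.39 to 4.91) in the Bdnf pair and 6.64 (6.02 to 7.34) in the Hgf pair, against 1.21 (0.22 to 2.23) between the control lungs.

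Cells with a Dlk1 UMI made up 0.269% and 1.25% of AT2-like cells in the Bdnf pair and 0.187% and 8.82% in the Hgf pair, at medians of 8447, 5861, 4722 and 3601 UMIs per cell, so the mutants were the shallower library of each pair. Thinned to 1500 UMIs per cell, which left out 87 Hgf control and 97 Hgf mutant cells, cells with a Dlk1 UMI made up 0.0533%, 0.524%, 0.0766% and 5.93%. In endothelial-like cells, taken as background, the shares were 0.047%, 0.184%, 0% (0 of 4726 cells, which allows up to 0.0635% of cells with a UMI and does not limit the share that express the gene) and 0.171%, at medians of 4195.5, 3277, 2171.5 and 1916 UMIs. The Dlk1 UMIs of AT2-like cells were not those of a few cells in the Hgf mutant, since 63 cells were needed to hold 50% of them and no cell had more than 20. Those of the Hgf control were in few cells, and without the 5 cells with most Dlk1 in each library the log2 ratio of the Hgf pair was 8.60, from 5 and 1052 UMIs. This left out 5 of the 10 control cells with Dlk1 and 5 of the 336 mutant cells, which by itself raises the ratio. AT2-like cells held 79.6% of all Dlk1 UMIs of the Hgf mutant with 23.6% of its cells, and 12.5% of those of the Bdnf mutant, where adventitial fibroblasts held 61.3%.

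Meg3, the maternally expressed partner of Dlk1, was higher in AT2-like cells of both mutants too. It had 63.5 (61.2 to 65.7) CPM in the Bdnf control, 186 (182 to 191) in the Bdnf mutant, 108 (104 to 112) in the Hgf control and 373 (363 to 383) in the Hgf mutant. Its log2 ratios were 1.55 (1.49 to 1.61) and 1.79 (1.72 to 1.85), against 0.77 (0.69 to 0.84) between the control lungs. The share of AT2-like cells with a Meg3 UMI was 23.4%, 47.2%, 27.6% and 59.1%, and 7.50%, 20.4%, 12.6% and 36.8% after thinning to 1500 UMIs.

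Within AT2-like cells of the Hgf mutant, the 336 cells with a Dlk1 UMI had 583 (543 to 625) CPM of Meg3 and the 3474 cells without one had 350 (340 to 360). Rian had 91.1 and 55.1 CPM in the same cells. Meg3 was also the higher in the 79 Dlk1-positive AT2-like cells of the Bdnf mutant, with 401 CPM against 183 CPM. The surfactant gene Sftpc had 54244 and 54179 CPM and the lamellar body gene Lamp3 1514 and 1493 CPM in Hgf mutant cells with and without Dlk1, at medians of 4027 and 3565 UMIs. In the Bdnf mutant, AT2-like cells with and without Dlk1 had 1216 and 451 CPM of Chil1 and 150 and 76.6 CPM of Lrg1. Ager had 423 and 379 CPM there, Sftpc 69616 and 69518 CPM and Lamp3 2418 and 2223 CPM. In the Bdnf control, where 15 cells had Dlk1, Retnla had 1288 and 182 CPM, Chil1 647 and 434 CPM, Lrg1 136 and 93.2 CPM and Ager 505 and 485 CPM. Chil1, Lrg1, Retnla and Ager were named after their values were seen. Their levels in the Hgf libraries, which hold most cells with Dlk1, are not given here, so these values describe the Bdnf lungs alone. A cell with more UMIs is more likely to show Dlk1 or Meg3, and the part of depth in these differences was not tested.

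Over AT2-like cells, 5 of 10 members were more than 2-fold higher in the Bdnf mutant (H19, Igf2, Dlk1, Meg3 and Mest), where 4.09% of 20227 genes were. In the Hgf pair 4 of 9 members with enough UMIs were (Igf2, Dlk1, Meg3 and Cdkn1c), where 7.22% of 16615 genes were, and between the control lungs 1 of 9 was, Dlk1, where 5.3% of genes were. No member was 2-fold lower in AT2-like cells of the Bdnf pair, the Hgf pair or the control lungs, where 1.31%, 7.26% and 9.11% of genes were. Igf2 had 8.53, 18.5, 4.35 and 9.40 CPM in the Bdnf control, Bdnf mutant, Hgf control and Hgf mutant, and Cdkn1c 11.6, 18.9, 12.1 and 31.5 CPM. For Igf2 the control lungs thus lay nearly as far apart as each pair, and the Hgf mutant little above the Bdnf control. In free RNA Igf2 had 9.90, 28.9, 5.95 and 7.11 CPM in the same order, above its AT2 level except in the Hgf mutant. The part of free RNA in these values was not tested.

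The 8 AT2 markers summed to 116509, 111719, 123383 and 94320 CPM in AT2-like cells of the 4 lungs in the same order, lowest in the Hgf mutant. The 7 matrix fibroblast markers summed to 1230 and 1217 CPM in the Bdnf pair and to 902 and 1394 CPM in the Hgf pair, so that in the latter they were higher in the mutant along with Dlk1 and Meg3, and their part in these values was not tested. The 8 AT1 markers summed to 867 to 1160 CPM, the 7 pericyte markers to 23.1 to 53.4 CPM, and the 7 immune markers to 1.70 to 2.59 CPM, with 1 at 0 in the Hgf control. The 6 markers of adventitial fibroblasts, which held most Dlk1 UMIs of the Bdnf lungs, summed to 67.3 CPM and 72.7 CPM in the Bdnf pair and 95.02 and 90.9 CPM in the Hgf pair, and the 7 mesothelial markers to 1.63 to 2.58 CPM, with 1 of them at 0 in each Hgf library. In barcodes under 100 UMIs, taken as free RNA, Dlk1 had 1.39 and 7.65 CPM in the Bdnf pair and 0.541 and 17.5 CPM in the Hgf pair, and Meg3 187, 346, 245 and 393 CPM. Dlk1 in AT2-like cells of the Hgf mutant stood above its level in free RNA, whereas in the Bdnf mutant, and Meg3 in all 4 lungs, it stood below. The part of free RNA in the AT2 values was not tested.

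**Figure D2:**
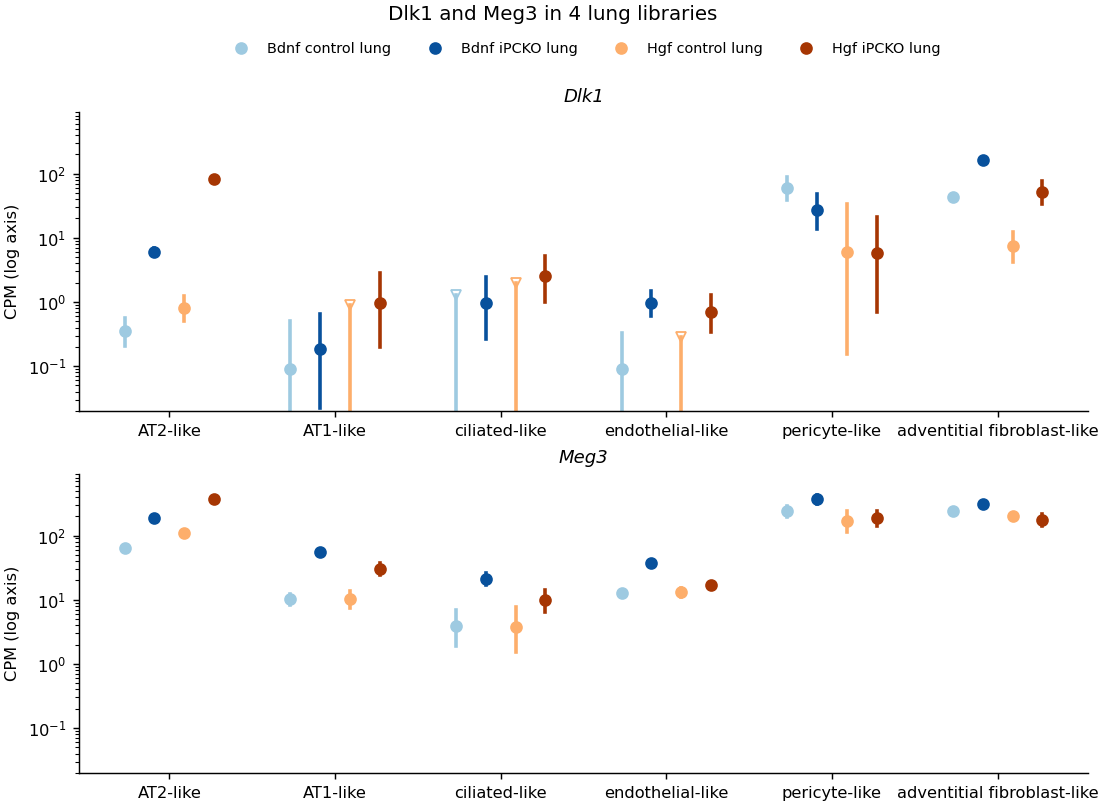
CPM of Dlk1 and Meg3 (log axes) in 6 classes of cells of the 4 lung libraries, with points for the levels, bars for exact Poisson 95% intervals and open triangles at the upper end of the interval where no UMI was counted. Dlk1 in AT2-like cells reaches 81.3 CPM in the Hgf mutant and 6.01 CPM in the Bdnf mutant, above 0.350 and 0.813 CPM in the controls, and Meg3 shows the same order within each pair.

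Outside AT2-like cells, Dlk1 was higher in adventitial fibroblasts of both mutants, the stromal cells around vessels and airways. It had 43.9 CPM in the Bdnf control and 164 CPM in the mutant, a log2 ratio of 1.90 (1.73 to 2.08), and 7.53 and 52.1 CPM in the Hgf pair, a log2 ratio of 2.79 (1.82 to 3.81) from 15 and 26 UMIs. The control lungs differed by a log2 ratio of -2.54 (-3.40 to -1.80), nearly as far as the Hgf pair. Of the 75 Dlk1 UMIs of the Hgf control, 30 came from 1 cell that was named immune and that also carried the cartilage genes described below. Without such cells Dlk1 over all cells had 2.89 and 11.6 CPM in the Bdnf pair and 0.692 and 24.3 CPM in the Hgf pair. In pericyte-like cells, which the deletion of Bdnf or Hgf targets, Dlk1 had 59.6 and 27.2 CPM in the Bdnf pair and 6.05 and 5.85 CPM in the Hgf pair, from 24, 11, 1 and 2 UMIs.

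Meg3 was higher in AT1-like cells of both mutants, with 10.2 and 55.7 CPM in the Bdnf pair and 10.2 and 30.3 CPM in the Hgf pair. The log2 ratios were 2.45 (2.16 to 2.76) and 1.57 (1.03 to 2.13), with 0.00 (-0.55 to 0.53) between the control lungs. Ciliated cells had 3.83 and 20.8 CPM in the Bdnf pair and 3.78 and 9.75 CPM in the Hgf pair. Both pairs were compared in 18 classes of lung cells and overlapping groups of them, and the Bdnf pair in mesothelial cells too. The interval of the Meg3 ratio lay above 0 in 17 in the Bdnf pair and in 7 in the Hgf pair, in 6 of them in both. These counts have no minimum of UMIs, and in the 13 classes with at least 20 Meg3 UMIs in each pair they were 13, 6 and 6. With the same minimum over all genes, 174932 combinations of a gene and a class, the interval lay above 0 in 15% in the Bdnf pair, above 0 in 17% and below 0 in 19.9% in the Hgf pair, above 0 in both in 5.68%, below 0 in both in 7.3% and on opposite sides in 3.58%. The 10 members had 115 such combinations, of which these were 64, 34, 37, 28, 10 and 16. An interval narrows with the number of UMIs, and the classes overlap, so that these counts describe the libraries alone. Meg3 in free RNA stood above its level in AT1-like and ciliated cells in every lung, and its part in these values was not tested.

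H19 and Igf2, the pair of genes at the chromosome 7 control region, differed most in the Bdnf lungs and in few cells. In mesothelial cells, the lining of the lung surface, H19 had 18.1 CPM in 29 control cells and 1265 CPM in 99 mutant cells, a log2 ratio of 6.12 (4.90 to 7.75) from 5 and 980 UMIs. Igf2 had 297 and 1629 CPM there, a log2 ratio of 2.45 (2.13 to 2.79) and 3.76 without the 5 cells with most Igf2 in each library. H19 UMIs were found in 6.90% of control and 40.4% of mutant mesothelial cells, and 6 cells held 50% of the mutant's H19 UMIs. The Hgf libraries had 5 and 10 mesothelial cells, too few for a comparison.

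In venous endothelial cells, Igf2 had 7.75 CPM in the Bdnf control and 205 CPM in the mutant, a log2 ratio of 4.72 (4.20 to 5.30). It was 2.24 with whole-number entries alone. An Igf2 count was found in 6.03% and 5.81% of venous cells, at medians of 5822 and 4775.5 UMIs, and 3 of 792 mutant cells held 50% of its UMIs. After thinning to 1500 UMIs the shares were 0.458% and 1.58%. Divided counts were rounded to whole numbers before thinning, which removed small ones, so the thinned shares also follow how reads were divided. Igf2 held 50% of its summed UMIs with Gm49394 in venous cells of the control and 72.4% in the mutant. H19 had no UMI in 547 venous cells of the control and 368 UMIs in 17 of 792 cells of the mutant, 2 of which held 50% of them. Against a floor of 3 UMIs in the control library this is at least 103-fold higher. In gCap-like cells Igf2 had 1.71 and 39.8 CPM, with 50% of the mutant's UMIs in 3 cells and up to 114 in 1 cell, and H19 8.98 and 37.2 CPM. The log2 ratio of Igf2 was 4.54 (3.84 to 5.33), and 0.41 (-0.27 to 1.09) when gCap-like cells were named by Leiden clusters. Between the control lungs H19 in gCap-like cells differed by a log2 ratio of 1.94 (1.57 to 2.33), about as much as the 2.05 (1.71 to 2.40) of the Bdnf pair.

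Myofibroblasts were a further case. H19 had no UMI in 1041 Bdnf control cells and 276 UMIs in 8 of 1658 mutant cells, of which 1 cell held 191. In adventitial fibroblasts H19 had 36.8 and 115 CPM in the Bdnf pair and Igf2 125 and 229 CPM, with log2 ratios of 1.64 (1.45 to 1.84) and 0.87 (0.76 to 0.99). In the control, 1 cell held 148 of 284 H19 UMIs, and without the 5 cells with most UMIs in each library the log2 ratio of H19 was 3.71. In the Hgf pair the H19 UMIs of adventitial fibroblasts were 70 in the control, all in 1 cell, and 2 in the mutant.

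Cells with fewer markers than the rule needs, which stayed unnamed, held 24.8% of the H19 UMIs of the Bdnf mutant with 2.37% of its cells. Their H19 level was 89.8 CPM in the Bdnf control, 932 CPM in the mutant, 217 CPM in the Hgf control and 11.3 CPM in the Hgf mutant, and 4, 1 and 2 cells held 50% of the UMIs in the Bdnf mutant, Hgf control and Hgf mutant. Some of the cells with most H19 carried genes of cartilage. In a set of 8 cartilage genes that was chosen after these values had been seen, 5, 13, 3 and 0 cells of the Bdnf control, Bdnf mutant, Hgf control and Hgf mutant held at least 4, and these cells carried 26.4%, 23.5%, 17.2% and 0% of the H19 UMIs of their library. Without them, H19 over all cells had 6.32 and 37.3 CPM in the Bdnf pair and 7.20 and 9.63 CPM in the Hgf pair.

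The number of cells that hold 50% of the UMIs shows how unevenly each gene was read. For H19 these were 7 of 144 cells with a UMI in the Bdnf control, 27 of 516 in the Bdnf mutant, 5 of 94 in the Hgf control, 23 of 165 in the Hgf mutant, 2 of 41 in the Nodal control and 7 of 88 in the Nodal mutant. If each UMI lay in a cell of its own, 605, 3735, 277, 284, 619 and 1298 cells would be needed. The 5 cells with most H19 held 45.1%, 17.8%, 53.2%, 16.2%, 80.3% and 43.4% of it in the same order. Grb10 and Igf2r lay at the other end, with 5.39% to 10.0% and 4.48% to 10.1% of all cells needed, against 0.0342% to 0.142% for H19. Meg3 needed 3.11% to 6.38% of the cells of the lungs and 0.711% and 1.34% of those of the cortex, where neurons, 2.26% and 4.33% of cells, held 77.2% and 83.4% of its UMIs. Dlk1 needed 0.0583%, 0.165%, 0.0137% and 0.501% of cells in the Bdnf control, Bdnf mutant, Hgf control and Hgf mutant lung.

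**Figure D3:**
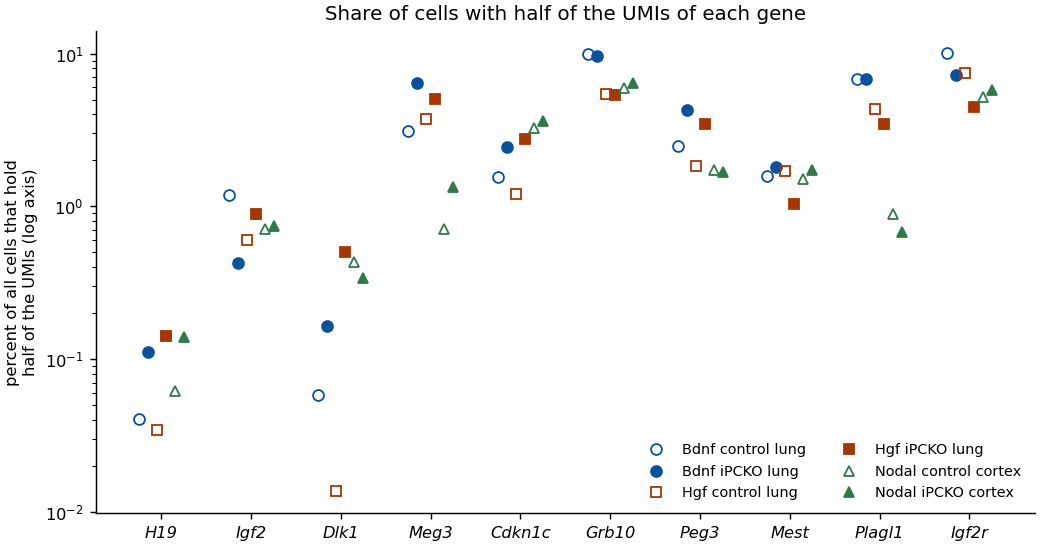
Percent of all cells (log axis) that together hold 50% of the UMIs of each gene in the 6 libraries, with open symbols for controls and filled symbols for mutants. H19 lies lowest in 5 libraries, between 0.0408% and 0.142% of cells, while in the Hgf control Dlk1 at 0.0137% lies below H19 at 0.0342%, and Grb10 and Igf2r lie highest with up to 10.0% and 10.1%.

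H19 and Igf2 were often found in the same cells. Of cells with an H19 UMI, 43.8%, 55.6%, 36.2%, 25.5%, 70.7% and 62.5% also had an Igf2 count in the Bdnf control, Bdnf mutant, Hgf control, Hgf mutant, Nodal control and Nodal mutant, against 10.6%, 14.0%, 4.41%, 4.20%, 18.6% and 12.4% of cells without H19. Among gCap-like cells with H19 in the 4 lungs, 0 of 28, 13 of 63, 2 of 25 and 3 of 46 also had Igf2, or 0%, 20.6%, 8% and 6.52%, against 1.276%, 1.97%, 1.09% and 1.15% of those without H19. Of cells with a Dlk1 UMI, 73.3%, 73.2%, 61.5%, 70.4%, 71.0% and 56.4% also had Meg3, against 16.9%, 29.6%, 14.9%, 19.7%, 16.1% and 19.3% of cells without Dlk1. These shares depend on the depth of the cells and on their types and are given as descriptions.

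Lymphatic endothelial cells, the highest lung cells for H19 in the Bdnf control, went in opposite directions in the pairs. H19 had 301 and 214 CPM in the Bdnf pair and 57.3 and 288 CPM in the Hgf pair, in 101 to 127 cells per library, with log2 ratios of -0.49 (-0.80 to -0.19), or -1.98 without the 5 cells with most H19, and 2.33 (1.76 to 2.94). The control lungs differed by -2.39 (-2.97 to -1.86), as far as the Hgf pair. Igf2 in all endothelial cells had 22.4 and 91.0 CPM in the Bdnf pair and 29.2 and 14.7 CPM in the Hgf pair.

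Peg3 was higher in gCap-like cells of both mutants. It had 98.2 (92.2 to 105) CPM in the Bdnf control, 223 (213 to 232) in the Bdnf mutant, 66.1 (59.3 to 73.3) in the Hgf control and 173 (162 to 184) in the Hgf mutant, so that both mutants lay above both controls. The log2 ratios were 1.18 (1.07 to 1.29) and 1.39 (1.21 to 1.56), and the control lungs differed the other way by -0.57 (-0.75 to -0.40). Thinned to 1500 UMIs, a Peg3 UMI was found in 10.48% of control and 18.2% of mutant gCap-like cells in the Bdnf pair and in 7.83% and 16.8% in the Hgf pair, after 909 and 1150 shallower cells of the Hgf pair had been left out. Unthinned, the shares were 19.2%, 27.9%, 9.84% and 19.9%. In free RNA Peg3 had 87.6, 141, 63.5 and 186 CPM, which moved with these values and in the Hgf mutant stood above them, and its part was not tested.

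Of 18 classes and groups of lung cells, the Peg3 interval lay above 0 in both pairs in 8, followed by Cdkn1c with 7 and Meg3 with 6, where 5.68% of gene and class combinations did over all genes. These were AT2-like, aCap-like, gCap-like, venous and matrix fibroblast cells, myofibroblasts, endothelial cells without a subtype, and all endothelial cells together, which contain the capillary and venous cells. Adventitial fibroblasts, the cells with most Peg3, differed by little and in opposite directions, with 638 and 568 CPM in the Bdnf pair and 474 and 692 CPM in the Hgf pair. In pericyte-like cells Peg3 had 12.4 and 170 CPM in the Bdnf pair, from 5 and 69 UMIs, of which 37 lay in 1 mutant cell.

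In gCap-like cells 5 of 9 members were more than 2-fold higher in the Bdnf mutant (H19, Igf2, Meg3, Peg3 and Plagl1), where 3.19% of 16278 genes were. Igf2 was not past 2-fold when the cells were named by Leiden clusters, with a log2 ratio of 0.41. In the Hgf mutant 2 of 9 were (Cdkn1c and Peg3), where 5.66% of 14114 genes were, and Mest was 2-fold lower, where 7.21% were. Between the control lungs H19 and Igf2 were past 2-fold higher, where 5.08% of genes were. None was 2-fold lower in the Bdnf pair or between the control lungs, where 1.94% and 6.72% of genes were. Peg3 was the only member past 2-fold higher in gCap-like cells of both pairs. Meg3 in gCap-like cells had 13.4 and 40.0 CPM in the Bdnf pair and 13.1 and 19.6 CPM in the Hgf pair. In free RNA it had 187 and 346 CPM in the Bdnf pair and 245 and 393 CPM in the Hgf pair. The part of free RNA in the gCap-like values was not tested.

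Mest stood out in aCap-like cells, the aerocytes that form the thin surface for gas exchange. It had 185 (169 to 203) CPM in the Bdnf control, 214 (198 to 231) in the Bdnf mutant, 263 (244 to 283) in the Hgf control and 57.2 (48.6 to 66.8) in the Hgf mutant, the only one of the 4 that was low. The log2 ratio was 0.21 (0.03 to 0.38) in the Bdnf pair, -2.20 (-2.46 to -1.95) in the Hgf pair and 0.50 (0.34 to 0.67) between the control lungs. In the Hgf pair it was -3.01 with a minimum of 3000 UMIs and -1.93 with Leiden clusters. A Mest UMI was found in 42.4%, 36.9%, 43.2% and 10.7% of these cells, at medians of 4556, 3262, 2946 and 2017 UMIs, and in 20.3%, 22.1%, 28.3% and 7.95% after thinning to 1500 UMIs, which left out 56 and 244 cells of the Hgf pair. In gCap-like cells Mest had 41.4 and 69.2 CPM in the Bdnf pair and 39.2 and 13.4 CPM in the Hgf pair. In venous and arterial cells of the Hgf pair it had 22.2 and 9.05 CPM and 27.7 and 9.29 CPM. Its interval lay above 0 in 10 classes of the Bdnf pair, which had mesothelial cells beside the 18 shared classes. It lay below 0 in 6 of the 18 in the Hgf pair, and the directions were opposite in 4, all of them endothelial. In the 7 classes with at least 20 Mest UMIs in each pair these were 5, 6 and 4, where 15%, 19.9% and 3.58% of gene and class combinations were over all genes.

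**Figure D4:**
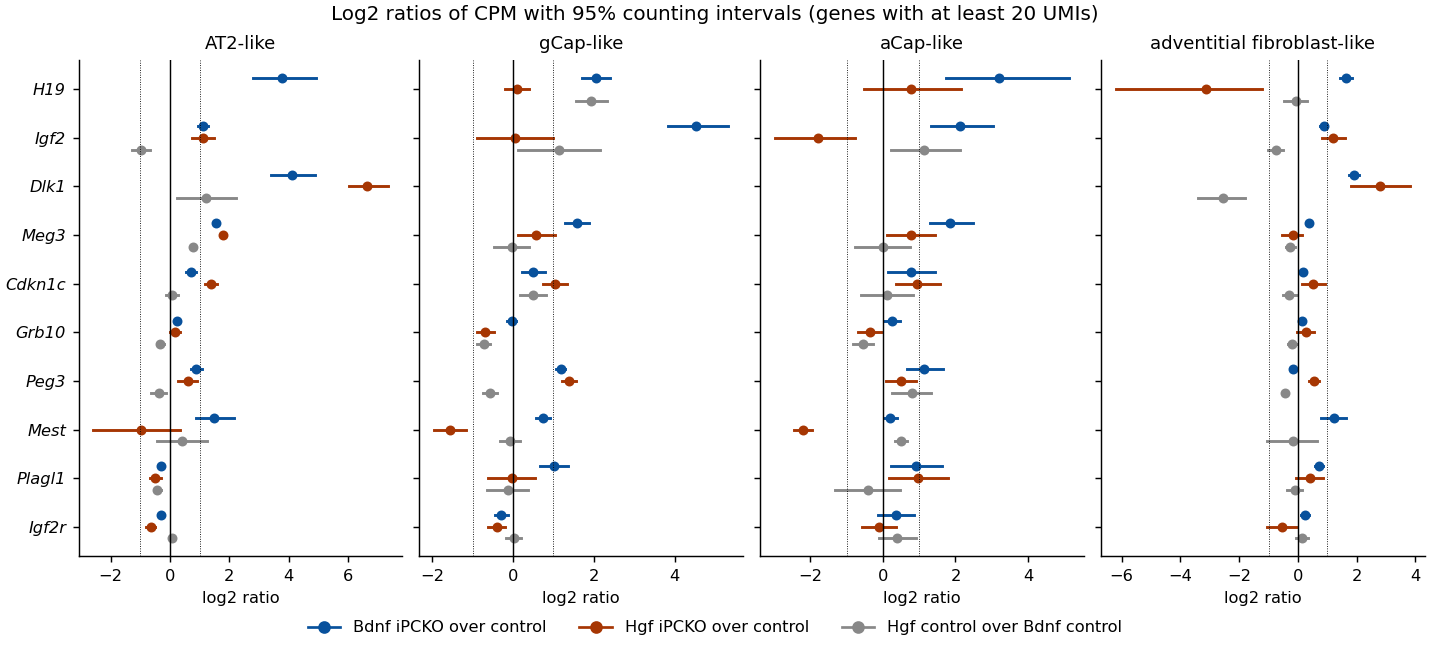
Log2 ratios of CPM of the 10 genes in AT2-like, gCap-like, aCap-like and adventitial fibroblast-like cells, for mutant over control in the Bdnf and Hgf pairs and for Hgf control over Bdnf control, with points for genes that reach 20 UMIs over the pair, lines for conditional exact 95% intervals and dotted lines at 2-fold. Dlk1 in AT2-like cells lies at 6.64 in the Hgf pair and 4.10 in the Bdnf pair, Peg3 in gCap-like cells at 1.39 and 1.18, and Mest in aCap-like cells at -2.20 and 0.21.

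Cdkn1c, an inhibitor of the cell cycle, differed little in the cells where it was highest. Pericyte-like cells had 1168 and 1106 CPM in the Bdnf pair and 1016 and 1194 CPM in the Hgf pair, with log2 ratios of -0.08 (-0.27 to 0.11) and 0.23 (-0.03 to 0.50). Ciliated cells had 988 and 684 CPM and 771 and 521 CPM, lower in both mutants, with log2 ratios of -0.53 (-0.61 to -0.46) and -0.56 (-0.67 to -0.46) against -0.36 (-0.45 to -0.27) between the control lungs. It was higher in both mutants in AT1-like and gCap-like cells. AT1-like cells had 9.08 and 27.8 CPM in the Bdnf pair and 9.46 and 19.2 CPM in the Hgf pair, and gCap-like cells had 18.7 and 26.5 CPM and 26.3 and 54.0 CPM. In gCap-like cells the Hgf control thus lay about as far above the Bdnf control as the Bdnf mutant did. Of the 18 classes, the interval lay above 0 in both pairs in 7, below 0 in both in 2 and on opposite sides in 2. In the 16 classes with at least 20 UMIs in each pair these were 7, 2 and 2, where 5.68%, 7.3% and 3.58% of combinations were over all genes. In free RNA Cdkn1c had 42.4 and 67.0 CPM in the Bdnf pair and 37.0 and 53.1 CPM in the Hgf pair. This is above its level in AT1-like and AT2-like cells of every lung. It is also above the level in gCap-like cells, except in the Hgf mutant, where the values were about equal. The part of free RNA in these values was not tested.

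Plagl1 was lower in AT1-like cells of both mutants, with 366 and 246 CPM in the Bdnf pair and 292 and 187 CPM in the Hgf pair. The log2 ratios were -0.57 (-0.64 to -0.50) and -0.64 (-0.79 to -0.50), with -0.33 (-0.42 to -0.23) between the control lungs. Igf2r was lower in both mutants in AT2-like, club, gCap-like and all endothelial cells, which contain the gCap-like cells, with 61.3 and 49.8 CPM and 64.4 and 40.8 CPM in AT2-like cells. These were 4 of 17 classes with at least 20 UMIs in each pair, against 7.3% of combinations over all genes. In the Hgf pair the interval lay below 0 in 9 of the 17, against 19.9%. In AT1-like cells Igf2r had 65.3 and 61.7 CPM in the Bdnf pair and 109 and 52.0 CPM in the Hgf pair, so that the control lungs, at 65.3 and 109 CPM, lay apart as well. Grb10 differed little in the Bdnf pair, with 333 and 384 CPM in myofibroblasts and 318 and 319 CPM in matrix fibroblasts. In the Hgf pair it had 365 and 275 CPM in myofibroblasts and 285 and 134 CPM in matrix fibroblasts, the latter from 125 and 18 UMIs. Its interval lay below 0 in 9 of the 18 classes, and in 9 of the 16 with at least 20 UMIs in each pair, against 19.9% of combinations over all genes.

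In the cortex, Igf2 was lower in the Nodal mutant in the cells that hold most of it. Fibroblasts, 2.26% and 1.96% of cells, held 71.8% and 63.5% of the Igf2 UMIs, and had 13579 CPM in 73 control cells and 8803 CPM in 98 mutant cells, a log2 ratio of -0.63 (-0.66 to -0.59). The sum of Igf2 and Gm49394, which does not depend on how reads were divided between them, gave -0.54. When entries that are not whole were left out, which kept 318 of 13962 control and 844 of 11027 mutant UMIs, the direction turned, at 1.10. Pericyte-like cells had 2394 and 1460 CPM of Igf2 in 274 and 419 cells, a log2 ratio of -0.71 (-0.78 to -0.65), and vSMCs 90.4 and 121 CPM. Meninges had been removed, and how many fibroblasts this step left in either library cannot be told apart from a difference between genotypes.

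H19 in cortex fibroblasts had 1044 and 1621 CPM, a log2 ratio of 0.64 (0.53 to 0.74), with UMIs in 15 of 73 and 33 of 98 cells. In the control 1 cell held 494 of 1073 UMIs, and without the 5 cells with most H19 in each library the log2 ratio was 3.31. This left out 5 of the 15 control cells with H19 and 5 of the 33 mutant cells. H19 in endothelial cells had 7.51 and 0.695 CPM, found in 0.635% and 0.720% of cells at medians of 9700 and 9896 UMIs. Plagl1 had 511 and 712 CPM in fibroblasts.

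Meg3 was lower in mutant neurons and higher over all cells. Neurons had 2943 CPM in 73 control cells and 2445 CPM in 217 mutant cells, a log2 ratio of -0.27 (-0.31 to -0.22), whereas all cells together had 218 and 333 CPM, a log2 ratio of 0.61 (0.57 to 0.65), with 2.26% and 4.33% neurons among them. With limits on doublets (the highest 6% of doublet scores in each library), mitochondrial reads and UMIs these log2 ratios were -0.76 and 1.55. In pericyte-like cells, from which Nodal had been deleted, Meg3 had 459 and 438 CPM, a log2 ratio of -0.07 (-0.20 to 0.07), and in vSMCs 232 and 214 CPM. Cdkn1c was lower in mutant endothelial cells, with 238 and 118 CPM, a log2 ratio of -1.01 (-1.10 to -0.92), and higher in pericyte-like cells, with 72.2 and 122 CPM, a log2 ratio of 0.76 (0.45 to 1.08). Dlk1 was highest in vSMCs, with 53.8 and 47.6 CPM. Among types with at least 20 cells Peg3 was highest in neurons, with 246 and 236 CPM, while 6 choroid plexus cells of the control had 253 (109 to 498) CPM from 8 UMIs.

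**Figure D5:**
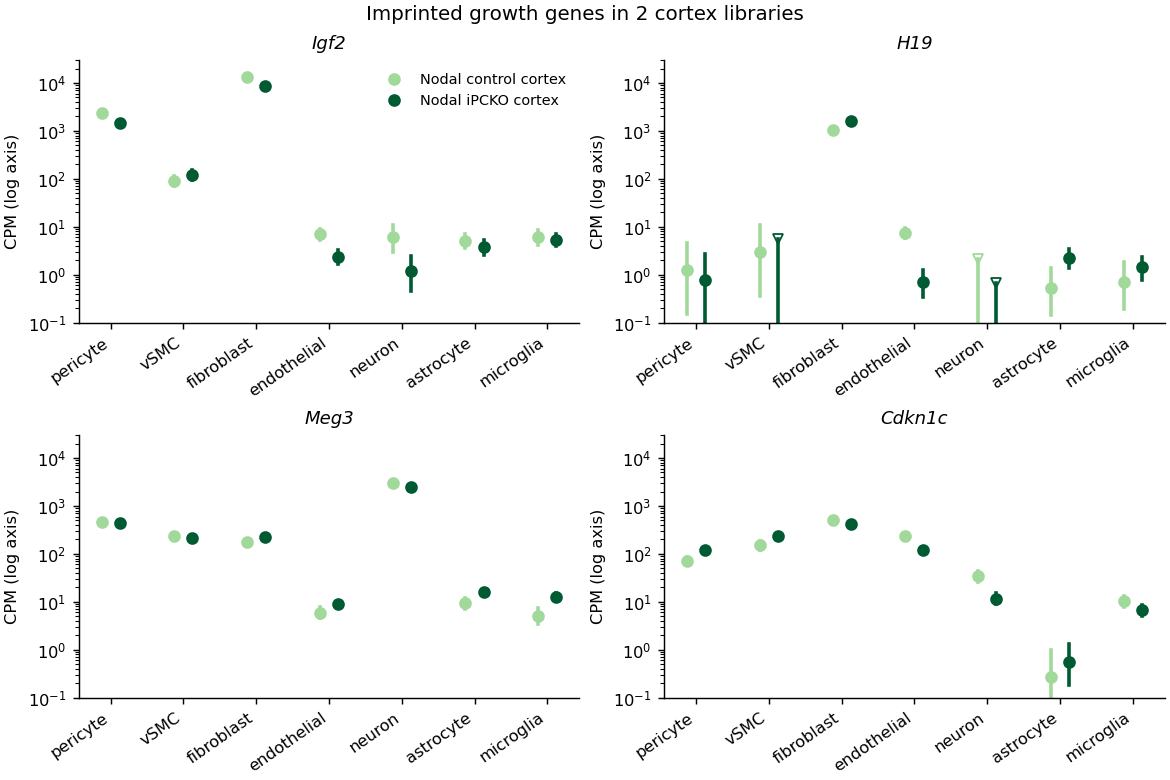
CPM of Igf2, H19, Meg3 and Cdkn1c (log axes) in 7 cell types of the control and Nodal mutant cortex, with points for the levels, bars for exact Poisson 95% intervals and open triangles at the upper end of the interval where no UMI was counted. Igf2 lies at 13579 and 8803 CPM in fibroblasts and at 2394 and 1460 CPM in pericyte-like cells, and Cdkn1c at 238 and 118 CPM in endothelial cells.

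Of 42 further imprinted genes, 41 were found, and over all cells of the Bdnf pair 1 of 37 with enough UMIs was 2-fold higher, Begain, with 2.52 and 5.44 CPM, and 1 was 2-fold lower, where 2.41% and 1.74% of all genes were. In the Hgf pair 1 of 36 was higher, Slc38a4, an amino acid transporter, with 9.600 and 19.6 CPM, and 4 were lower, among them Nnat with 210.3 and 32.9 CPM and Ddc with 12.03 and 4.47 CPM, where 7.98% and 6.7% of all genes were higher and lower. Begain and Nnat also differed between the control lungs, by log2 ratios of 2.24 and 1.19. In the Nodal pair 1 of 38 was higher, Magel2 with 0.430 and 2.37 CPM, and 1 was lower, where 3% and 2.31% were. The median log2 ratio over this list was -0.02, -0.14 and 0.06 in the Bdnf, Hgf and Nodal pairs, against 0.01, 0.05 and -0.04 over all genes, and that of the 10 members 0.51, -0.06 and -0.02.

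Of the 14 genes of the IGF pathway, which carry, bind or transmit insulin-like growth factors, 1 was 2-fold higher over all cells of the Bdnf pair, the RNA-binding protein Igf2bp3, with 2.62 and 5.50 CPM, and the share of all genes was 2.41%. In the Hgf pair Igf2bp3 was higher again, with 2.34 and 5.72 CPM, and 2 were lower, Igf1 with 19.6 and 3.46 CPM and the binding protein Igfbp2 with 73.1 and 27.4 CPM, where 7.98% and 6.7% of all genes were higher and lower. Igf1 also differed between the control lungs, by a log2 ratio of -1.53. In AT2-like cells of the Hgf pair 6 of 13 genes of this list were 2-fold higher (Igf1r, Igfbp3, Igfbp4, Igf2bp1, Igf2bp2 and Igf2bp3) and 1 was lower, Irs1, where 7.22% and 7.26% of all genes were. In the Bdnf pair 3 of 14 were higher there (Igfbp3, Igf2bp1 and Igf2bp3) and 0 lower, where 4.09% and 1.31% of genes were, and between the control lungs 0 of 14 were higher and 1 lower, Igf1, where 5.3% and 9.11% were. These genes were named after their values were seen. None of the list was past 2-fold in the Nodal pair, where 3% and 2.31% of all genes were higher and lower.

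Of 12 genes of early postnatal growth, 1 was 2-fold higher in the Bdnf pair over all cells, Hmga2, a chromatin protein of growing tissue, with 1.75 and 4.21 CPM, and none was lower, where 2.41% and 1.74% of all genes were. In the Hgf pair 2 were higher, the histone methyltransferase Ezh2 with 41.5 and 103 CPM and Hmga2 with 0.927 and 2.77 CPM, and none was lower, where 7.98% and 6.7% were. None was past 2-fold in the Nodal pair, where 3% and 2.31% were higher and lower. The proliferation gene Mki67 had 12.7 and 7.79 CPM in the Bdnf pair and 8.99 and 12.3 CPM in the Hgf pair.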

How the data were processed

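The authors aligned BD Rhapsody reads with STARsolo (STAR 2.7.10a, from the submitters' processing notes) to GRCm39, divided multi-mapping reads by expectation maximization and kept all barcodes. The deposited matrices hold estimated counts of UMIs without normalization, and 8.50% to 9.94% of entries are not whole. The files with the barcode parts of the beads were not used. Members, marker sets, gene lists and limits were chosen with earlier results of these data known.

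Barcodes with at least 1500 UMIs (700 in the Hgf libraries) were kept. A marker counted as detected with at least 1 UMI and a share of the cell's UMIs not below its share in free RNA (barcodes under 100 UMIs). A cell was named after the class with the largest share of its markers detected, with at least 3 markers and a share of at least 0.4. Every unrelated class had to stay below 0.5 and every related class below 0.75 of it. Endothelial subtypes needed 2 markers. Markers of 2 classes left a cell unnamed, which stood in for a doublet caller. Counts of each gene were then added up over the cells of a type in a library. Genes with at least 20 UMIs in a pair counted as compared. Where a control had 0 UMIs, a floor of 3 UMIs was used. Groups were taken from the labels and, with 1 library per genotype, no p-value was computed. Intervals are exact Poisson (levels) and conditional exact (ratios) at 95%. Python packages were numpy 2.4.6, scipy 1.17.1, pandas 2.3.3, matplotlib 3.10.9, scanpy 1.11.5, leidenalg 0.10.2 and igraph 0.11.9. The scripts were tested on simulated data.

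Named genes were the 10 members, of each further list up to 4 in each direction with the largest log2 ratio over all cells among those with at least 100 UMIs in a pair and an interval without 0, and the 3 genes most like H19, Igf2, Dlk1 and Meg3. Genes of a list in AT2-like cells, and Ager, Chil1, Lrg1 and Retnla, were named after their values were seen. Alternatives were other UMI minima, Leiden clusters, doublet, mitochondrial and UMI limits, size factors, whole entries alone, thinning, other count minima and 1.5-fold. Doublets were taken as the highest 6% of scores in each library, since a minimum in the scores was not found in every library. A further 3 were chosen after seeing the data, which added Gm49394 to Igf2, left out the 5 cells with most UMIs of a gene, and left out cells with cartilage genes.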

Additional observations from a re-analysis of the deposited data

Results flagged for a closer look

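Each genotype had 1 library, so that no sample was set against others of its group. In 18 cases, over 18 lung classes and groups that partly overlap, a gene differed in opposite directions in the Bdnf and Hgf pairs, with both intervals leaving out 0. Of the 115 combinations of a member and a class with at least 20 UMIs in each pair 16 did so, or 13.9%, against 3.58% over all genes. The difference between the pairs was not tested and the pairs were made as separate libraries. The differences below are log2 ratio of the Bdnf pair minus log2 ratio of the Hgf pair.

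Mest differed by 2.41 in aCap-like cells, 2.29 in gCap-like cells, 2.93 in endothelial cells without a subtype and 2.59 in all endothelial cells, and was lower in the Hgf mutant in each. Igf2 in all endothelial cells differed by 3.02, from log2 ratios of 2.02 and -0.996, in those without a subtype by 4.20 and in aCap-like cells by 3.93, and H19 in lymphatic cells by -2.82. Plagl1 in venous cells differed by 1.01 and Cdkn1c in arterial cells by 0.77 and in endothelial cells without a subtype by -1.07. Grb10 differed by 0.62 in aCap-like cells and by 0.62 in myofibroblasts. In adventitial fibroblasts Igf2r differed by 0.79, Peg3 by -0.71 and H19 by 4.77. H19 in pericyte-like cells differed by -4.67 and Meg3 in immune cells by 5.21. In 5 of these cases a pair held under 100 UMIs. In the Bdnf and Hgf pairs Meg3 in immune cells rests on 6 and 16 UMIs, H19 in pericyte-like cells on 13 and 21, and Igf2 in aCap-like cells on 94 and 46. H19 in adventitial fibroblasts rests on 72 UMIs in the Hgf pair and Igf2 in endothelial cells without a subtype on 52.

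In barcodes under 100 UMIs, which the comparisons of cells do not use, 5 log2 ratios were past 2-fold higher in a mutant, namely H19 at 2.50 (1.69 to 3.37), Igf2 at 1.52 (0.90 to 2.15) and Dlk1 at 2.46 (0.94 to 4.26) in the Bdnf pair, and Dlk1 at 5.02 (3.43 to 7.31) and Peg3 at 1.55 (1.38 to 1.72) in the Hgf pair. They rest on 17 and 56, 36 and 60, 5 and 16, 3 and 112, and 352 and 1189 UMIs in control and mutant.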

How the results depend on the processing

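No paired analysis was possible because each genotype had 1 library. Of 62 log2 ratios, 62 moved by less than their interval with a minimum of 1000 UMIs, 61 with median-of-ratios size factors, 56 with Leiden clusters, 55 with whole entries alone, 54 with doublet, mitochondrial and UMI limits and 52 with a minimum of 3000 UMIs, and 41 of 60 without the 5 cells with most UMIs. The ratios missing from these 60 were H19 in mesothelial cells of the Bdnf pair and in endothelial cells of the Nodal pair. Their control UMIs lay in 2 and 5 cells, so none was left after the cut. The direction turned in 1 case, Igf2 in cortex fibroblasts with whole entries alone, at 1.10. Its other values were -0.45 (Leiden clusters), -0.29 (doublet, mitochondrial and UMI limits), -0.55 (without 5 cells) and -0.54 (Gm49394 added). Igf2 in venous cells of the Bdnf pair had 2.24 with whole entries alone, 3.39 without 5 cells and 4.19 with Gm49394 added, and Igf2 in gCap-like cells 5.96 with whole entries alone, 2.63 without 5 cells and 0.41 with Leiden clusters. With a minimum of 3000 UMIs Peg3 in gCap-like cells of the Hgf pair had 1.78 and Mest in aCap-like cells -3.01 (-1.93 with Leiden clusters). Without 5 cells Dlk1 in AT2-like cells of the Hgf pair had 8.60 from 5 and 1052 UMIs, Dlk1 over all cells of that pair 5.92, H19 over all cells 0.99 in the Hgf and 1.89 in the Nodal pair, H19 in lymphatic cells of the Bdnf pair -1.98 and Igf2 in mesothelial cells 3.76. Meg3 over all cells of the Nodal pair had 1.55 with doublet, mitochondrial and UMI limits. The cells that hold 50% of the H19 UMIs were 12 in the Bdnf control and 15 in the Hgf mutant after thinning, and 3 in the Hgf control and 14 in the Hgf mutant with a minimum of 3000 UMIs. At 1.5-fold 3 members were higher and 2 lower in the Hgf pair (17.8% and 14.5% of all genes), and 1 higher and 3 lower in the Nodal pair (7.63% and 8.51%). Leaving out a fixed 5 cells takes a larger share where fewer cells hold the gene, so those values follow cell numbers as well. The cause of these moves was not tested. Depth limits rare types, and 0 UMIs in a type means only that none was detectable at this depth.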
